A study of Mus musculus with 14 samples.

Results

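The miR-34 family was followed across 14 small RNA libraries from the small intestine of Sox9-eGFP mice. Rows of the deposited miRNA table were taken as members when their name begins with mmu-mir-34a-, mmu-mir-34b- or mmu-mir-34c- and carries no shift suffix. This gave 4 members, mmu-mir-34a-5p, mmu-mir-34b-5p, mmu-mir-34b-3p and mmu-mir-34c-5p (miR-34a-5p and so on below), of 534 entries without a suffix, in a table of 2030 entries in all. The family was taken up with earlier results of these data known, among them that miR-34a-5p and miR-34c-5p have opposite profiles. The difference between the profiles is therefore described and was not tested. The tests of each member below use the same values that led to this choice. Their p-values describe those values and are no independent support.

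All mice were of the C57BL/6J strain and carried the Sox9-eGFP reporter, whose green fluorescence follows the activity of Sox9, a transcription factor gene of intestinal crypts. Cells were sorted by fluorescence into High, Low, Sublow and Negative populations (3 libraries each), and 2 libraries came from Non-sorted cells. From earlier work with this reporter, the brightest cells are known to be rich in enteroendocrine cells and the Low gate in stem cells, with dividing progenitors in the Sublow gate and mature epithelium among the Negative cells. The labels give neither the age nor the number of mice, and nothing in them says that the libraries of a population come from separate animals, so a p-value here speaks of the spread among libraries, which may be technical. Each population is a mixture of cells set by a fluorescence gate, and fewer cells of a type cannot be told apart from less of a miRNA per cell.

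miR-34 RNAs are best known as targets of the tumour suppressor p53, which activates transcription of both family loci after DNA damage. The mature RNAs repress genes of the cell cycle and of cell survival, and the stretch of bases that pairs with targets, the seed, is shared with the miR-449 RNAs. miR-34b and miR-34c are made from one primary transcript and, with miR-449, are abundant in multiciliated cells and male germ cells, while miR-34a has its own locus and is found in many tissues.

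The sequences show why the family can be treated as one seed group. They are from RefSeq (build GRCm38.p6), 5′ to 3′, with the seed, bases 2 to 8, in capitals.
miR-34a-5p: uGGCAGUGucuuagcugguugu
miR-34b-5p: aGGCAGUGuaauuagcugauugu
miR-449a-5p: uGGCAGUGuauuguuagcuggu
miR-449c-5p: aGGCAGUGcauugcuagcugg
miR-34b-3p: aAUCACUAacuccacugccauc
Mir34c hairpin: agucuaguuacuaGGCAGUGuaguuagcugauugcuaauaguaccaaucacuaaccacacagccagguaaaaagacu
The first 4 have the seed GGCAGUG, and miR-34b-3p, from the other arm of the miR-34b hairpin, has the seed AUCACUA. The mature miR-34c-5p is not in that table, so the hairpin of Mir34c is shown instead. The same 7 letters occur in it once, starting at position 14. Of 1679 mature mouse miRNAs in the table, 4 (0.238%) have GGCAGUG at bases 2 to 8. Over the full length the sequences are less alike. Aligned from the 5′ end without gaps, seed included, miR-34a-5p and miR-34b-5p share 11 of 22 positions, and miR-34a-5p and miR-449a-5p share 15 of 22. An alignment with gaps, which can match more bases, was not made.

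On GRCm38.p6, the Mir34a hairpin lies on the plus strand of chromosome 4 at chr4:150068454-150068555. Its 3′ end overlaps the single exon of Gm37795 (150068539 to 150070997, plus strand), an unclassified transcript. The Mir34c and Mir34b hairpins lie on the minus strand of chromosome 9 at chr9:51103034-51103110 and chr9:51103562-51103645, next to each other. In the GENCODE annotation both are inside Btg4, a gene on the opposite strand, and neither overlaps a Btg4 exon. The submitters' processing notes name build mm9 for the study, so these positions come from the annotation and not from the deposited values.

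Values are RPM, scaled so that the miRNA entries of every library sum to 1000000. The depth estimated from the steps between low values was 1890000 to 16370000 reads (median 5000000). The smallest value that a library lists was assumed to be near 10 reads, and the step was searched only around that. The 10.01 to 10.9 reads estimated for it rest on this assumption, as do the depths and all read numbers below. A value of 0 is read as a level under that smallest value and not as absence. The 7 libraries that list miR-295-3p, a miRNA of pluripotent cells, stand apart: High 2, Low 2, Sublow 2, Negative 1, Negative 2 and both Non-sorted libraries. All 5 of the 7 pluripotency markers that are in the table were listed in these libraries, summing to between 863.94 and 1994.01 RPM, and all 5 were at 0 in the other 7 libraries. They are the 5 libraries of lane L006 and 2 of the 4 labelled L000, whose names also hold the word Combo. The labels do not say whether L000 is a single lane. Fits with a term for listing miR-295-3p, and without the 7 libraries that list it, are given where they change a call.

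The sort itself was visible in the markers. The 4 enteroendocrine markers (miR-375-3p, both miR-7a copies and miR-7b-5p) summed to 174117 to 200307 RPM in High, 105152 to 131070 in Low, 30160 to 34262 in Sublow, 4223 to 5920 in Negative and 17196 to 31470 in Non-sorted libraries. In this sum miR-7a is counted at both genomic copies, which have similar values. The sum of the 3 enterocyte markers ran the other way, at 132476 to 158651 RPM in High and 530524 to 534071 in Negative libraries, through miR-215-5p and miR-194-1-5p. The other one, miR-192-5p, was at 89615 to 113889 RPM in High and 82655 to 82816 in Negative libraries (log2 difference 0.30, limma adjusted p = 0.0622, and −0.25 after median-ratio rescaling). Of the multiciliated markers, miR-449a-5p and miR-449c-5p were in the table, and they are described with the seed group. miR-145-5p (smooth muscle), miR-142-3p (blood cells), and miR-451 and miR-144-3p (red cells) were at 0 in every library. The remaining red cell marker, miR-486-5p, was listed in every library, at 26.99 to 38.33 RPM in High libraries, 11.89 to 32.39 in Low, 9.72 to 27.73 in Sublow, 9.88 to 33.93 in Negative and 7.39 to 8.76 in Non-sorted ones. The endothelial pair, miR-126-5p and miR-126-3p, summed to 10.21 to 17.06 RPM in High libraries, 0 to 12.64 in Low, 0.98 to 5.96 in Sublow, 0.81 to 5.09 in Negative and 3.63 to 6.39 in Non-sorted ones, with miR-126-3p at 0 outside High. The smooth muscle list summed to 53.16 to 132.07 RPM in High, Low and Sublow libraries, 24.5 to 36.78 in Negative and 38.88 to 66.75 in Non-sorted ones. Sums of the blood cell list were 11.1 to 67.3 RPM in High, 42.37 to 212.98 in Low, 11.71 to 160.56 in Sublow, 6.51 to 102.92 in Negative and 10.04 to 11.33 in Non-sorted libraries. Of that list, miR-150-5p was at 0 to 3.07 RPM in the 7 libraries that list miR-295-3p. Elsewhere it was at 0 in High 3 and at 22.57 to 74.21 RPM in the remaining libraries. The endothelial and smooth muscle sums were thus lower in Negative than in High libraries, as miR-34c-5p was. In the smooth muscle list this came through miR-1a and miR-133a, each counted at both genomic copies, which have equal values. miR-143-3p of that list went the other way, at 6.63 to 14.28 RPM in High and 9.44 to 22.5 in Negative libraries (log2 difference −0.78, limma adjusted p = 0.286). The part of these cells in the differences of miR-34c-5p was not tested.

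miR-34a-5p, the family member with the highest RPM in every library outside High, was lower in High cells than in each of the other sorted populations. It was at 17.43, 41.10 and 41.76 RPM in High libraries, 71.11, 91.53 and 145.79 in Low, 110.90, 121.99 and 163.69 in Sublow, 89.93, 91.99 and 108.77 in Negative, and 70.30 and 114.37 in Non-sorted libraries. The 3 High values lie below all 11 others. The Low, Negative and Non-sorted ranges overlap, and the Sublow values lie just above the Negative ones, as they do for 38.1% of all tested entries. These values rest on an estimated 79 to 2680 reads per library.

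High cells averaged 33.4 ± 13.9 RPM, Low cells 103 ± 38.6, Sublow cells 132 ± 27.8 and Negative cells 96.9 ± 10.3 (SD, n = 3 each), and Non-sorted cells 92.3 ± 31.2 (SD, n = 2). In order of level they run Sublow, Low, Negative, Non-sorted and High. Among the sorted populations, the test found no difference between the first 3 in that order and passed for each of them against High. Among the entries without a suffix that a library lists, miR-34a-5p ranked 146 to 198 by RPM in High, 113 to 140 in Low, 98 to 112 in Sublow, 98 to 108 in Negative and 105 to 115 in Non-sorted libraries.

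**Figure D1:**
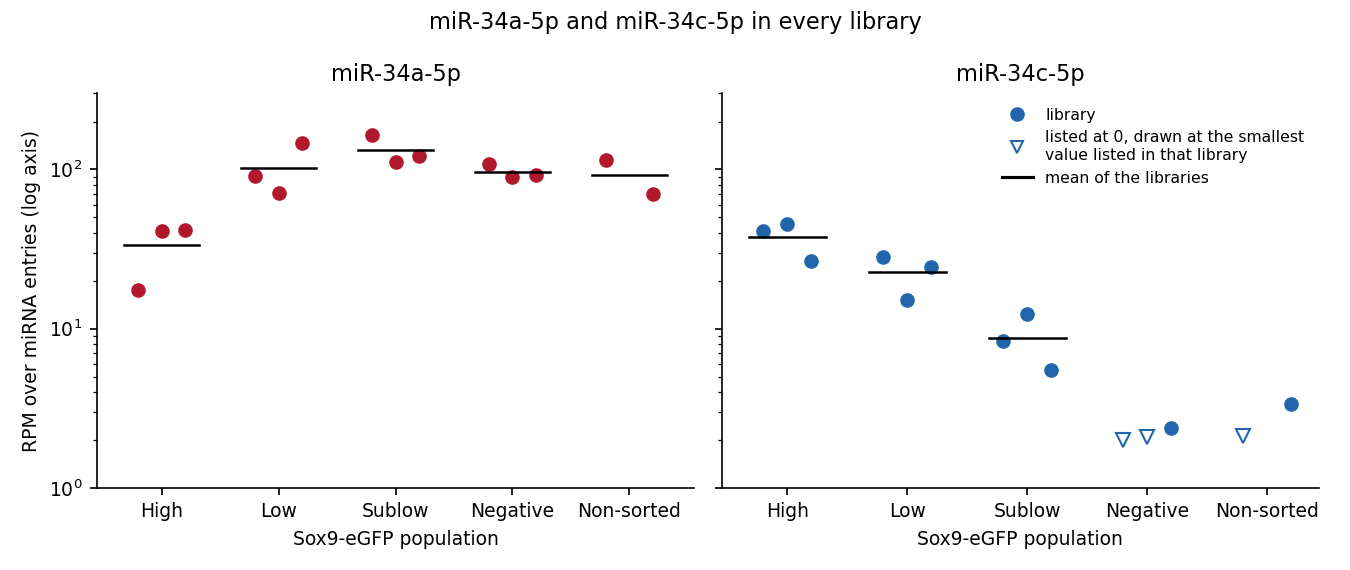
RPM of miR-34a-5p and miR-34c-5p (log axis) in each library of the 5 populations. Circles are libraries, bars are means of populations in which every library lists the miRNA, and open triangles are libraries that list it at 0, drawn at the smallest value listed there. miR-34a-5p is lowest in High (17.43 to 41.76), where miR-34c-5p is at 26.43 to 45.45, and miR-34c-5p is at 2.37 or listed at 0 in Negative.

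Tests were made with limma on log2(RPM + 1), a scale that understates the change of low values, over the 588 entries with at least 10 RPM in at least 3 libraries. p-values were adjusted over these entries by the Benjamini-Hochberg method, with a threshold of 0.05. miR-34a-5p and miR-34c-5p passed the filter. miR-34b-5p and miR-34b-3p did not. miR-34c-5p reached 10 RPM in all High and Low libraries and in 1 of Sublow, so it passed through the populations in which it is high. Its p-values below are conditional on high values there and are no independent support.

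miR-34a-5p, whose profile was known beforehand, differed across the 4 sorted populations in limma's moderated F test (F = 12.8, adjusted p = 0.00124). The exact permutation test of the F statistic over the 12 sorted libraries (369600 assignments) gave p = 0.00545. This is a common outcome in these libraries, since 72.3% of all tested entries passed the same F test. The direction is less common: 20.1% of tested entries were called lower in High than in Low, where the median difference over all entries was −0.11 on the log2 scale. Libraries without overlap, and lower in High, were found for 27.0% of entries against Low, 24.1% against Sublow and 23.0% against Negative cells.

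For miR-34a-5p, High minus Low was −1.63 (SE 0.36, 95% interval −2.40 to −0.85, limma adjusted p = 0.00517), a level 3.09 times lower in High. High minus Sublow was −2.03 (SE 0.36, adjusted p = 5.51e-04), against a background of 22.4% of entries called lower. High minus Negative was −1.60 (SE 0.36, adjusted p = 0.0018), also with 22.4% called lower. High libraries share no lane label with Sublow or Negative libraries, so a lane term compares them only through the Low libraries, which lie in both L000 and L005. With that term High minus Sublow was −2.43 (adjusted p = 0.0355), and High minus Negative was −2.04 (adjusted p = 0.0587) and no longer called. Among libraries labelled L000, the only lane label with both High and Low libraries, High minus Low was −1.89 (2 libraries each). Whether they shared a single lane is not known, and High 2 and Low 2 of them list miR-295-3p.

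The other pairs of miR-34a-5p did not pass. Low minus Sublow was −0.40 (95% interval −1.18 to 0.37), Low minus Negative was 0.026 (−0.75 to 0.80) and Sublow minus Negative was 0.43 (−0.35 to 1.21). These intervals leave room for differences of more than 2-fold in the first and in the last pair. Rescaling the libraries by median ratios shifted the difference of the typical entry by between −0.84 (Low minus Negative) and 0.32 (High minus Low), and Low minus Negative of miR-34a-5p then stood at −0.84 (adjusted p = 0.0638). In the same rescaling its Sublow minus Negative turned to −0.046. The sorted mean minus Non-sorted was −0.18 (adjusted p = 0.667).

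miR-34c-5p, the member from the paired chromosome 9 locus, was highest in High and Low cells and close to the detection floor in Negative cells. It was at 26.43, 40.97 and 45.45 RPM in High libraries, 15.11, 24.34 and 28.15 in Low, and 5.53, 8.36 and 12.37 in Sublow. In Negative libraries it was listed at 0, 0 and 2.37 RPM, and in Non-sorted libraries at 0 and 3.35. The High and Low ranges overlap, by 1 library of each. High, Low and Sublow values all lie above every Negative value.

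Depth matters for the low end. The 2.37 RPM came from Negative 3, the deepest Negative library, and equals an estimated 38 reads. The smallest values that Negative 1 and Negative 2 list are 1.99 and 2.10 RPM, so a level like that of Negative 3 would have stood only just above the floor there. The Non-sorted value of 3.35 RPM equals an estimated 12 reads. In the High, Low and Sublow libraries the estimate runs from 50 to 550 reads.

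With the limit of the filter given above, miR-34c-5p differed across the sorted populations (limma F = 21.7, adjusted p = 1.47e-04). The exact permutation test over the same 12 libraries gave p = 1.3e-04, and the profile of miR-34c-5p was known beforehand. The means were 37.6 ± 9.94 RPM in High, 22.5 ± 6.71 in Low and 8.75 ± 3.44 in Sublow cells (SD, n = 3 each). High minus Low was 0.72 on the log2 scale (SE 0.62, 95% interval −0.64 to 2.08, adjusted p = 0.431) and did not pass. Among libraries labelled L000 it was 1.13 (2 libraries each). Low minus Sublow was 1.29 (SE 0.62, 95% interval −0.07 to 2.65, adjusted p = 0.127), although the libraries do not overlap, as was the case for 34.9% of all tested entries, in the same direction. In that pair 24.3% of entries were called higher.

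Low minus Sublow of miR-34c-5p passed in 3 alternatives, with a pseudocount of 10 (0.79, limma adjusted p = 0.0183), with zeros set to the floor (1.29, 0.0121) and without the 7 libraries that list miR-295-3p (1.80, 0.0155). High minus Sublow was 2.01 (SE 0.62, adjusted p = 0.0181), where 28.1% of entries were called higher and 31.6% had no overlap in that direction. That call was lost without High replicate 1 (1.93, adjusted p = 0.0521), High replicate 2 (1.86, 0.0549) or Sublow replicate 3 (1.75, 0.0653), with a pseudocount of 0.1 (2.13, 0.215), with quantile normalization (1.69, 0.0603) and with a lane term (2.61, 0.156).

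Against Negative cells, miR-34c-5p was higher in each of the other populations. These tests too carry the limit of the filter given above. High minus Negative was 4.65 (SE 0.62, limma adjusted p = 3.86e-05), Low minus Negative 3.93 (adjusted p = 1.57e-04) and Sublow minus Negative 2.64 (adjusted p = 0.00549). Higher values than in Negative cells were called for 43.9%, 49.5% and 26.9% of all tested entries in these pairs, and libraries without overlap in that direction were found for 44.9%, 55.3% and 38.1%. With 2 of 3 Negative libraries at 0, the size of these differences depends on the pseudocount: High minus Negative was 6.98 with 0.1 and 2.13 with 10. With zeros raised to the smallest value a library lists, an alternative chosen after seeing the data, the 3 differences were 3.58, 2.86 and 1.57, all past the threshold. Without the 7 libraries that list miR-295-3p, Sublow minus Negative was 1.21 (adjusted p = 0.118), with 1 Negative library left that is assumed to vary like the others. Within lane L005 that difference was 1.21 and within lane L006 it was 3.74.

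The sorted mean of miR-34c-5p minus Non-sorted was 2.33 (SE 0.58, limma adjusted p = 0.0103), where 24.5% of entries were called higher. The call was lost without Non-sorted replicate 1, the library at 0 (1.27, adjusted p = 0.171), with a lane term (2.24, adjusted p = 0.136) and with a pseudocount of 0.1 (3.50, adjusted p = 0.0577). Both Non-sorted libraries are in lane L006.

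**Figure D2:**
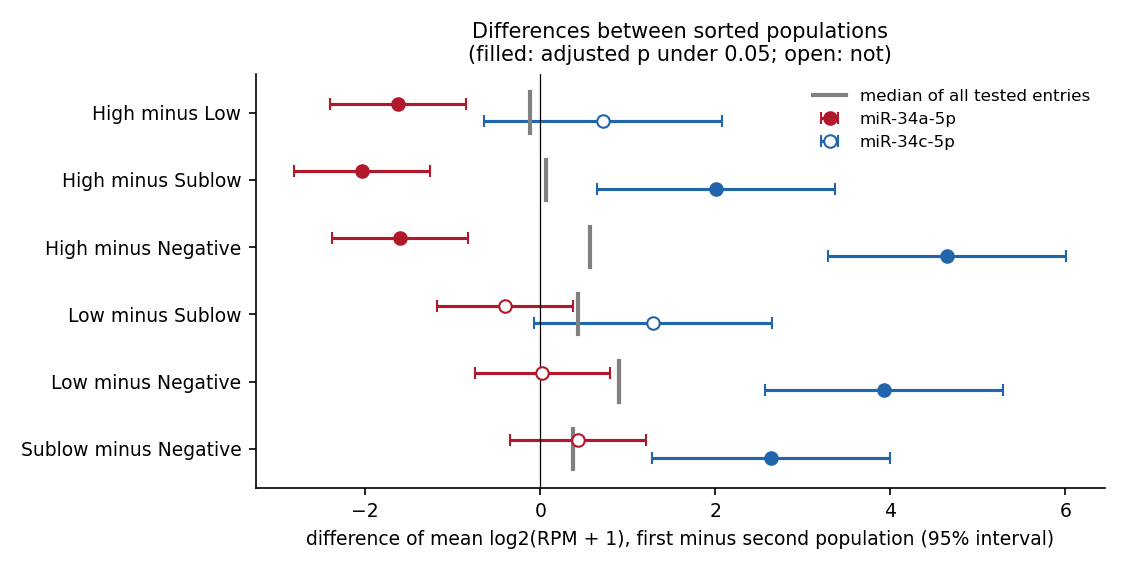
Differences of mean log2(RPM + 1) between sorted populations for miR-34a-5p and miR-34c-5p, with 95% intervals. Filled points have an adjusted p under 0.05, and grey bars mark the median of all tested entries. miR-34a-5p lies left of 0 in the 3 pairs with High (−1.63, −2.03 and −1.60), while miR-34c-5p lies right of 0 in all 6 pairs, up to 4.65.

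The ratio of miR-34c-5p to miR-34a-5p within a library does not depend on how libraries are scaled to each other. It was 0.633, 1.11 and 2.35 in High libraries, 0.167, 0.212 and 0.308 in Low, and 0.045, 0.051 and 0.112 in Sublow. In Negative libraries it was 0, 0 and 0.026, and in Non-sorted libraries 0 and 0.048. Among the 4 sorted populations no 2 ranges of this ratio overlap. The opposite profiles behind it were known beforehand, and the share of other pairs of entries with such separation was not computed. In High 1 and High 2 miR-34c-5p exceeded miR-34a-5p, and in the other 12 libraries it was below it. Both come from the same count of reads, and the kit's capture of each sequence was not calibrated, so the ratio compares libraries and not molecules.

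Adding the entries with the GGCAGUG seed (miR-34a-5p, miR-34b-5p, miR-34c-5p, miR-449a-5p and miR-449c-5p) gives the level of the seed group. The sum was 59.89 to 92.64 RPM in High, 95.88 to 183.65 in Low, 126.80 to 172.05 in Sublow, 89.93 to 112.10 in Negative and 73.65 to 114.37 in Non-sorted libraries. High and Negative ranges of the sum overlap, while those of miR-34a-5p alone do not. miR-34c-5p made up 38.8 to 68.4% of the sum in High libraries, 13.3 to 23.5% in Low, 4.24 to 9.76% in Sublow and at most 2.43% in Negative libraries.

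**Figure D3:**
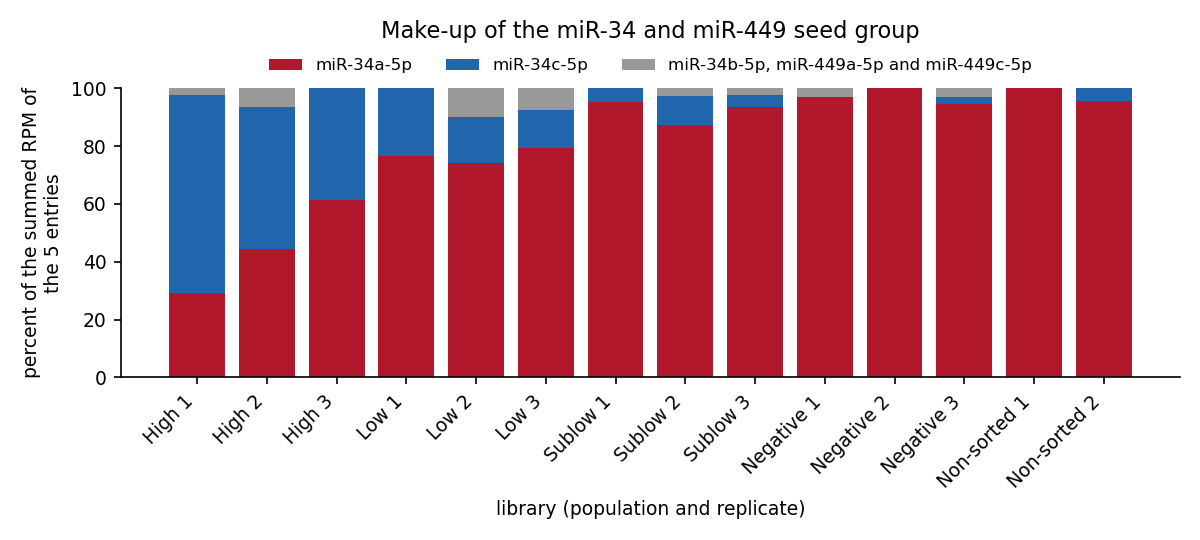
Share of the summed RPM of the 5 entries with the GGCAGUG seed that each entry takes, per library. miR-34c-5p takes 38.8 to 68.4% in the 3 High libraries and at most 2.43% in the 3 Negative libraries, where miR-34a-5p takes at least 94.4%.

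The miR-34b members were near the floor. miR-34b-3p was listed at 2.68 RPM in High 1, 3.72 in Low 2 and 3.48 in Low 3, and at 0 in the remaining libraries. miR-34b-5p was listed only in High 2, at 6.09 RPM. These values equal an estimated 15 to 36 reads. All 4 listings fall in High or Low libraries, the populations with the most miR-34c-5p, whose hairpin is the neighbour of the miR-34b one. They are also the 4 libraries labelled L000. High 3 and Low 1, which do not carry that label, list neither arm. No Sublow, Negative or Non-sorted library is labelled L000, so population and lane label cannot be told apart for these listings. No Sublow, Negative or Non-sorted library lists either arm, including Sublow 1, the deepest library of the study, whose smallest listed value is 0.62 RPM.

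miR-449a-5p, which has a locus of its own on chromosome 13, was listed in 7 libraries at 1.49 to 11.7 RPM. Its highest values were in Low 3 (11.72) and Low 2 (9.66), both labelled L000, and it was at 0 in Low 1, of lane L005. In High 1 and High 2, also labelled L000, it was at 1.49 and 0 RPM, and in High 3 at 0. miR-449c-5p was listed once, in Low 3 at 1.80 RPM. Neither was tested.

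Forms of miR-34a-5p with a shifted start were rare. The sign and number of the suffix were read as the shift of the 5′ end, positive for downstream, which the table does not define. The form shifted by 1 was listed in 11 libraries at 3.06 to 10.65 RPM and was at 0 in High 1, High 3 and Low 1. On that reading its seed would be GCAGUGU in place of GGCAGUG. The form shifted by −1 was listed in 6 libraries at up to 7.34 RPM, the one shifted by −2 in Low 1 and Low 3, and the one shifted by 5 is listed at 0 throughout. In High 2 they made up 10.6% of all miR-34a-5p, and in High 1 and High 3 no shifted form was listed. The share was 4.52 to 13.03% in Low libraries, 3.83 to 7.20% in Sublow, 4.95 to 6.87% in Negative and 5.97 to 6.88% in Non-sorted ones. Of miR-34c-5p, the form shifted by 1 was listed in High 2 at 6.97 RPM. Adding shifted forms to their miRNA changed no call of either member.

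Over the 12 sorted libraries, the entries most like miR-34c-5p in log2(RPM + 1) were miR-375-3p (Pearson r = 0.976), miR-184-3p (0.97), miR-7a-2-3p (0.966), miR-7b-5p (0.963) and miR-139-3p (0.953), out of 273 entries compared. miR-375 and miR-7 are RNAs of endocrine cells. miR-375-3p averaged 123490 RPM in High, 58075 in Low, 15413 in Sublow and 837 in Negative cells, and 10191 in Non-sorted cells. miR-139-3p averaged 499 RPM in High, 132 in Low, 49.99 in Sublow and 4.86 in Negative cells (n = 3 each). All 12 points share the split into 4 populations, so r describes the order of the populations and no more. miR-34c-5p thus moved with the enteroendocrine markers given above, and their part in its differences was not tested.

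The entries most like miR-34a-5p were miR-20a-5p (r = 0.911), miR-17-5p (0.889), miR-107-3p (0.885), miR-185-5p (0.851) and miR-18a-5p (0.838). miR-17, miR-18a and miR-20a come from one cluster, miR-17-92, which is tied to proliferation. miR-17-5p averaged 135 ± 58.8 RPM in High, 525 ± 53.4 in Low, 606 ± 96.9 in Sublow and 375.1 ± 10.5 in Negative cells (SD, n = 3 each). miR-107-3p averaged 232 ± 34.8 RPM in High, 591 ± 61.6 in Low, 693 ± 41.4 in Sublow and 514.5 ± 36.9 in Negative cells. These entries too were lowest in High and highest in Sublow cells. Between the members themselves r was −0.47.

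**Figure D4:**
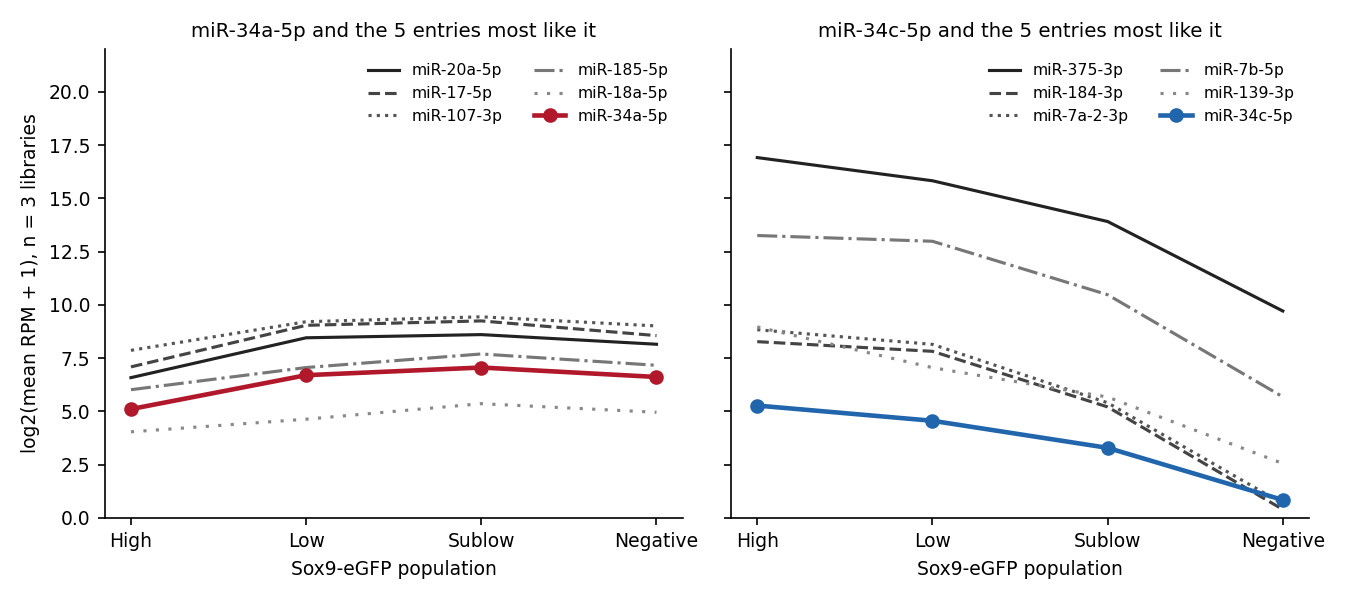
log2 of the mean RPM + 1 (n = 3 libraries) in the 4 sorted populations for miR-34a-5p, miR-34c-5p and the 5 entries with the highest Pearson r to each. The left panel is lowest in High and highest in Sublow for all 6 lines, and the right panel falls to its lowest point in Negative for all 6.

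Other miRNAs linked to p53 did not share 1 direction. The list, drawn from general knowledge, holds 16 miRNAs reported to be induced by p53 or matured with its help, of which 13 were tested. In High against Negative cells 2 of the 13 were higher, 5 were lower and 6 did not pass, with a median of 0.12 beside 0.57 over all tested entries, of which 43.9% were called higher and 22.4% lower. After median-ratio rescaling that median was −0.43, with 2 higher and 6 lower. The rescaled median over all 588 tested entries was 0.042, with 193 called higher and 172 lower. In High against Low cells 1 was higher, miR-22-3p (0.81, limma adjusted p = 0.00148), 4 were lower and 8 did not pass (median −0.31, against −0.11 over all). Over all tested entries 7.99% were called higher and 20.1% lower in that pair. In High against Sublow cells 2 were higher and 5 lower, with and without rescaling. Over all entries 28.1% and 22.4% were called so without rescaling, and 159 and 138 of 588 after it. In Low against Sublow cells 3 were higher and 4 lower, where 24.3% of all entries were called higher and 10.4% lower, and in Sublow against Negative cells 2 were higher and 3 lower, beside 26.9% and 8.67% of all entries. After rescaling these counts were 1 and 5, and 0 and 4, beside 68 and 86, and 68 and 75, of all 588 entries. In Low against Negative cells 6 were higher and 4 lower, where 49.5% of all entries were called higher and 16.5% lower. Rescaled, 1 was higher and 7 were lower in that pair, beside 131 and 136 of all 588 entries. In High against Low, 3 were then higher and 2 lower, beside 81 and 70. Several of these miRNAs, miR-194 and miR-215 among them, are also set by gut transcription factors, and the list is no measure of p53 activity.

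The largest differences of the list were those of miR-194-1-5p and miR-215-5p. miR-194-1-5p averaged 6746 ± 435 RPM in High and 109618 ± 3423 in Negative cells (log2 difference −4.02, limma adjusted p = 3.32e-10). miR-215-5p averaged 40381 ± 6232 RPM in High and 340410 ± 5018 in Negative cells (−3.09, adjusted p = 5.88e-10), and miR-203-3p, known from skin for curbing stem cell character, averaged 328 ± 12.95 RPM in High and 2513 ± 135 in Negative cells (−2.94, adjusted p = 2.06e-07). miR-107-3p was lower too (−1.15, adjusted p = 8.45e-05). miR-141-3p, of the epithelial miR-200 family, was higher in High cells (1.99, adjusted p = 6.9e-07). Of 4 miRNAs reported to repress p53 itself, 2 were tested, and miR-30d-5p and miR-25-3p were both higher in High than in Negative cells (1.27 and 0.80, adjusted p = 6.01e-06 and 2.21e-04). After median-ratio rescaling miR-25-3p was at 0.25 in that pair (adjusted p = 0.0775). The other pairs with High, without rescaling, did not share that direction. miR-25-3p was lower in High than in Low cells (−1.41, limma adjusted p = 1.75e-05) and than in Sublow cells (−0.62, 0.00222). High minus Low of miR-30d-5p was −0.028 (0.913) and its High minus Sublow was 0.72 (0.00103).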

How the data were processed

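The authors deposited 1 table of RPM values (each library scaled to 1000000 over its miRNA entries) for 14 libraries, made with a TriLink CleanTag kit per the labels' protocols. The submitters' processing notes name build mm9, while which aligner made the alignments is not given in the sources used here. Entries under the smallest listed value of a library, assumed to be near 10 reads, are listed as 0. Depth was estimated from the steps between low values, of which 71.2 to 85.8% were whole reads within 0.1 read, too few to recover counts.

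Values were analysed as log2(RPM + 1) in limma 3.58.1 (R 4.3.3) with 1 model of the 5 populations, a mean-variance trend and adjustment over 588 entries, and tested on simulated data. Exact permutation tests and figures used Python 3.11.15 with matplotlib 3.10.9. Contrasts were tested two-sided. Exact permutation tests used the F statistic. Differences are brighter minus dimmer population. Members, marker lists, the p53-linked list and alternatives were chosen with earlier results of these data known, by rule: all members, the 5 entries most correlated with each tested member, and the 6 p53-linked miRNAs with the largest High minus Negative difference. miR-22-3p and miR-25-3p were named after their values were seen. Of genomic copies of a p53-linked miRNA the most abundant entry was used. Alternatives were other pseudocounts, filters and scalings, no trend, a lane or replicate term and leaving out libraries. The 2 that concern zeros and the 7 libraries listing miR-295-3p were chosen after seeing the data.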

Additional observations from a re-analysis of the deposited data

How the results depend on the processing

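Over 13 alternatives other than leaving out a library, 195 of 210 values for the 2 tested members kept their direction and their side of the threshold. The remaining ones, with limma adjusted p, were these. High minus Sublow of miR-34c-5p was 2.13 with pseudocount 0.1 (0.215), 1.69 with quantile normalization (0.0603) and 2.61 with a lane term (0.156), no longer called. High minus Negative of miR-34a-5p was −2.04 with a lane term (0.0587). Low minus Sublow of miR-34c-5p passed with pseudocount 10 (0.79), with zeros set to the smallest listed value (1.29) and without the 7 libraries that list miR-295-3p (1.80), and without these libraries its Sublow minus Negative was 1.21 (0.118). Low minus Negative of miR-34a-5p, near 0 at 0.026, turned to −0.84 with median-ratio rescaling, −0.20 with quantile normalization, −0.16 with a lane term and −0.0034 with a term for listing miR-295-3p, and its Sublow minus Negative turned to −0.046 with median-ratio rescaling. The sorted mean minus Non-sorted of miR-34c-5p was 3.50 with pseudocount 0.1 (0.0577) and 2.24 with a lane term (0.136). The cause was not tested.

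Leaving out each library in turn, High minus Sublow of miR-34c-5p ranged from 1.75 to 2.27, and the sorted mean minus Non-sorted from 1.27 to 3.39 for miR-34c-5p and from −0.53 to 0.17 for miR-34a-5p. Low minus Negative of miR-34a-5p ranged from −0.26 to 0.26, and was below 0 without Low 3, Negative 2 or Negative 3. Where 1 Non-sorted library is left, it is assumed to vary like the others. The lane term uses up High 3, the only library of lane L008, and takes L000 as a single lane, which the labels do not state. A replicate block changed no call (High minus Low of miR-34a-5p −1.63, adjusted p = 0.00705). Library names share BC338, BC339 or BC340 across populations along with the replicate number, and the labels do not say what these codes name, so whether the numbers pair the libraries is not settled. Of 26 same-number pairs, 17 correlated above 0.1 in their deviations (range −0.35 to 0.78), against 11 of 52 pairs with different numbers (−0.84 to 0.71). Among sorted libraries r was −0.35 to 0.58 for number 1, 0.57 to 0.75 for number 2, whose 4 libraries all list miR-295-3p, and 0.077 to 0.78 for number 3. Not every pair exceeded 0.1, so the block was kept as an alternative. miR-34c-5p could not be fitted with a filter of 50 RPM.

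The smallest listed value, 0.62 to 5.55 RPM by library and assumed to be near 10 reads, is what bounds the miR-34b, miR-449 and Negative miR-34c-5p values.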
